A study of Mus musculus with 9 samples.

Results

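In the livers of mice with dextran sulfate sodium (DSS) colitis, and of mice given indirubin on top of DSS, a handful of hepatic transcripts stood far below their level in the livers of water-treated mice. The 7 genes described here are Selenbp2, Car3, Upp2 and Gadd45g, chosen by their low values in DSS against Control, Inpp1 and BC024386, chosen by their low values in Indirubin against Control, and Selenbp1, added as the close paralog of Selenbp2. They are 7 of the 56748 genes in the deposited count table. Because the contrasts with Control chose 6 of the 7, their values in those contrasts are a description and carry no test.

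The study asked how a sublethal dose of indirubin, a plant-derived indole pigment used against ulcerative colitis, affects the liver in chronic colitis. Bulk RNA was sequenced from livers of C57BL/6J mice (C57BL/6 in the sample labels) in 3 groups of 3 libraries. Control livers carry the label water, DSS livers came from mice given 3 cycles of 1.8% DSS in the drinking water with a daily oral water vehicle, and Indirubin livers came from mice given the same DSS cycles and 1 g/kg/day of oral indirubin. The design text speaks of colitis in all mice while the Control label says water, so the state of the Control mice is given here only as the label has it. The study's methods give an age in weeks that is that of young adult mice. Sex and time of day of sampling are not given in the sources used here. Nothing in the labels says whether each library is 1 mouse, so a p-value measures the spread between these libraries.

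Each library held 6514863 to 7944684 counts, of which 71.6 to 91.3% lay in mitochondrial genes, leaving 569044 to 2132208 counts in nuclear genes. The mitochondrial share was 87.5 to 91.3% in Control, 72.4 to 87.7% in DSS and 71.6 to 89.5% in Indirubin. None of the 15 hepatocyte markers was at 0 in any library, and their sums of 14961 to 34461 CPM overlapped between the groups. In Indirubin against Control 10 of the 15 had a negative log2 fold change and 5 lay below Control without overlap, as did 9.32% of all genes fitted. Among them were Ttr at -1.57 (SE 0.49, edgeR adjusted p = 0.175) and Apoa1 at -1.26 (SE 0.41, adjusted p = 0.188). EdgeR called none of the 15, with 5 lower at an unadjusted p under 0.05. Indirubin-2 and Indirubin-3 stood apart from the other libraries. Their 20 pancreatic acinar markers summed to 1681 and 1675 normalized CPM, which are counts relative to the scaled library total, against 0 to 24.4 in the other 7 libraries, and their 14 neutrophil markers to 694 and 898 against 3.17 to 255. Of the 20 acinar markers 1 was at 0 in each of them, against 9 to 20 in the other libraries. Lcn2 alone made up 439 and 804 CPM of their neutrophil sums, and 211 and 241 CPM of those in DSS-2 and DSS-3. The 12 markers of skeletal muscle, a tissue that also expresses Car3, summed to 303 CPM in Indirubin-3 and to at most 7.16 elsewhere. The 12 adipocyte markers summed to 59.7 and 102 CPM in Indirubin-2 and Indirubin-3 against 16.9 to 27.7 in the others. Most of this was Fabp4, at 42.9 and 48.8 CPM, and Lpl, at 14.3 and 47.2. Adipoq had 0 counts in all 9 libraries, and 6 and 4 of the 12 were at 0, against 7 to 10 in the others. The 15 macrophage markers summed to 308 and 278 CPM in Indirubin-2 and Indirubin-3 against 132 to 222. The Y-linked Ddx3y was counted in all 9 libraries, at 18 to 155 counts, and Xist in 1 of them, at 8 counts. The part of these differences in the results below was not tested beyond the values given without Indirubin-1 and by library. In bulk tissue, fewer cells of a type and less RNA per cell cannot be told apart.

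The 7 genes serve separate tasks of the hepatocyte. SELENBP1 is a selenium-binding protein that oxidizes methanethiol, a sulfur compound made in quantity by gut bacteria, and SELENBP2 is its mouse liver paralog, known for binding the reactive product of acetaminophen. Carbonic anhydrase III, encoded by Car3, is an abundant cytosolic protein of liver, muscle and fat with weak hydratase activity. UPP2 is the uridine phosphorylase of liver, GADD45G a stress-induced adaptor that binds and activates a mitogen-activated kinase kinase kinase, and INPP1 a phosphatase that removes the phosphate at the inositol ring's first position. BC024386 is annotated as a long noncoding RNA. In the mouse, hepatic Selenbp2 and Car3 are higher in males than in females, a difference set by the pulsatile release of growth hormone and carried by STAT5.

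Selenbp1 and Selenbp2 are the members whose sequences matter for reading the data, because any read that falls in an identical stretch fits both. In the GENCODE M21 transcripts their coding sequences were each 1416 bases long and identical at 1398, so that 18 bases (98.7% identity) separated them, and the longest identical coding stretch was 193 bases. The coding window of 120 bases with the most differences, bases 288 to 407 from the start codon, is shown with its 4 differing bases in capitals.
Selenbp1: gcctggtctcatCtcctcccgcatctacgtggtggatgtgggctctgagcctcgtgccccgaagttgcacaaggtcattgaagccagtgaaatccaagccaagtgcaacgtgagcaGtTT
Selenbp2: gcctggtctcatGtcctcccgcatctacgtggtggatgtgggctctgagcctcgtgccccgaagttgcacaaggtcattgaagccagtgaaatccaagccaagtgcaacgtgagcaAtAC
Over the whole Selenbp2 transcript, 52.0% of 50-base stretches, 21.2% of 100-base stretches and 6.94% of 150-base stretches were also present in Selenbp1. The read length and the handling of reads that fit both genes are not given in the sources used here, so the split of counts between the paralogs is uncertain to that extent.

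The 250 bases before the RefSeq starts (GRCm38.p6) of the paralogs are shown because the pair is alike in this stretch too, while its levels were not. Capitals mark the bases that differ between them or have no partner in the alignment, in Selenbp1 at chr3:94932833-94933082 and in Selenbp2 at chr3:94693323-94693572, both on the plus strand.
Selenbp1: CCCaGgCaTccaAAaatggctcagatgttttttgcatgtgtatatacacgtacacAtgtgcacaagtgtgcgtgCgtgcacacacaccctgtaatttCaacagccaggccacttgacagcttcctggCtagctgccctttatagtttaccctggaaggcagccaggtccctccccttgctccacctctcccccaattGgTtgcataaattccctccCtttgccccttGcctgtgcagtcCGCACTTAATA
Selenbp2: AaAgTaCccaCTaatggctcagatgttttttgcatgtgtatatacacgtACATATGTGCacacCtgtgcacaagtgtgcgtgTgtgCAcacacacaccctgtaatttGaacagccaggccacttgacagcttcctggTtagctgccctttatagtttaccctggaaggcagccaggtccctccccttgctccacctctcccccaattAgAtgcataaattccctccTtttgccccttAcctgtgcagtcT
The last 27 printed bases of Selenbp1 and the last 17 of Selenbp2 lie inside GENCODE M21 transcripts that start earlier than the RefSeq ones. Of 238 aligned bases, 223 were identical (93.7%). RefSeq windows were matched for 6 of the 7 genes, with 2 for Upp2. In these 7 windows, searched on both strands, the E-box CACGTG occurred once, starting 142 bases before the Gadd45g start, against 6.02% of all 32851 windows. The STAT element TTCNNNGAA, present in 7.02% of all windows, and the D-box TTATGTAA, in 0.819%, matched in none of the 7.

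Selenbp2 (ENSMUSG00000068877, chromosome 3, 94600863 to 94611720, GRCm39, plus strand) was the member with the widest gap between groups. Its normalized CPM was 45.9, 49.9 and 83.1 in Control-1 to Control-3, 1.19, 3.01 and 0.457 in DSS-1 to DSS-3, and 12.1, 0 and 0.605 in Indirubin-1 to Indirubin-3. Every Control library stood above every other library, and DSS and Indirubin overlapped. The raw counts behind these values were 860 over the Control libraries, 32 over DSS and 73 over Indirubin, of which 66 were in Indirubin-1. The log2 fold change was -5.32 (SE 0.60) in DSS against Control, the sixth lowest value of the 7482 genes fitted, and -3.92 (SE 1.16) in Indirubin against Control. Without Indirubin-1 the latter was -7.69, and without DSS-2 the former was -6.19.

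Selenbp1 (ENSMUSG00000068874, chromosome 3, 94840367 to 94852069, plus strand) did not follow its paralog. It stood at 35.4, 17.8 and 9.74 CPM in Control, 20.9, 9.57 and 28.8 in DSS, and 25.0, 72.5 and 115 in Indirubin. Control and DSS overlapped throughout, while Indirubin-2 and Indirubin-3, the libraries with acinar markers, were above all others and Indirubin-1 lay within the Control range. Its log2 fold change was -0.06 (SE 0.48) in DSS against Control and 1.79 (SE 0.59) in Indirubin against Control, where it was 2.88 scaled by library size alone.

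The share of the pair's counts assigned to Selenbp2 is a measure within each library that library scaling does not touch. It was 56.5% (exact 95% binomial interval 51.6 to 61.3%) in Control-1, 73.7% (69.0 to 78.0%) in Control-2 and 89.5% (86.0 to 92.4%) in Control-3. In DSS it was 5.38% (2.61 to 9.66%), 23.9% (14.6 to 35.5%) and 1.56% (0.509 to 3.61%). In Indirubin it was 32.7% (26.3 to 39.6%) in Indirubin-1, 0 of 885 counts in Indirubin-2, which allows a share of up to 0.339% by the limit of 3 counts and 0.416% by the exact interval, and 0.522% (0.210 to 1.07%) in Indirubin-3. Selenbp2 thus held the larger part of the pair in all 3 Control libraries and the smaller part in all 6 others. These intervals cover counting error only. The pair's summed level was 81.3, 67.6 and 92.8 CPM in Control, 22.0, 12.6 and 29.3 in DSS, and 37.1, 72.5 and 116 in Indirubin, so that the sum was inside the Control range in Indirubin-2 and above it in Indirubin-3, made up there almost wholly of counts assigned to Selenbp1.

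**Figure D1:**
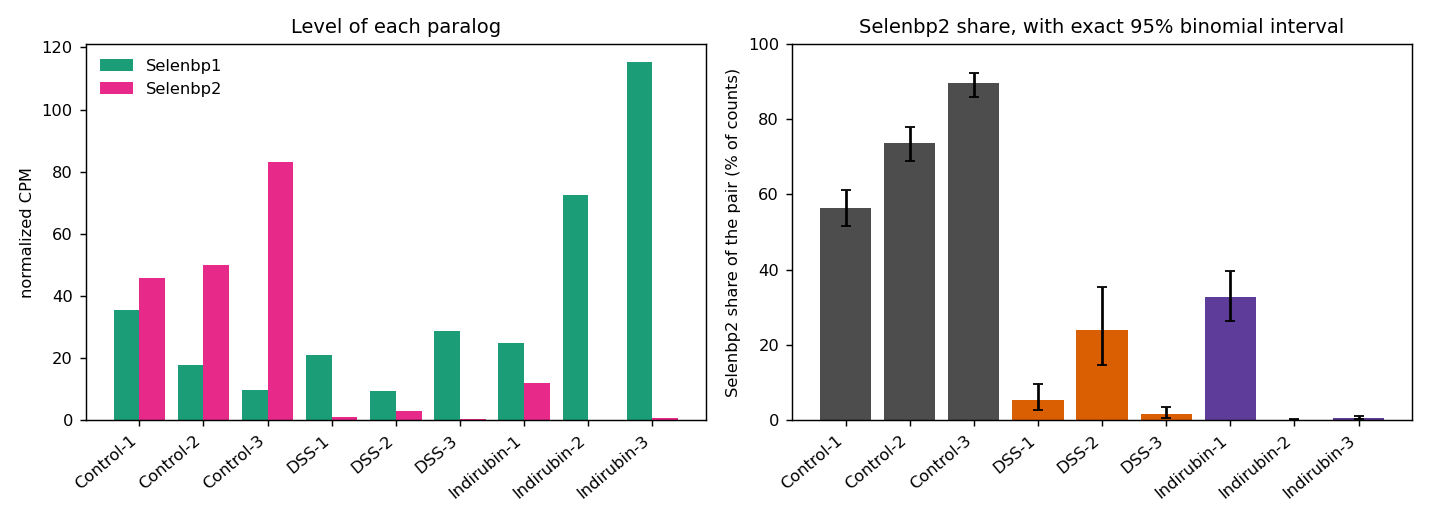
Selenbp1 and Selenbp2 in each of the 9 libraries. The left panel gives normalized CPM of each paralog as bars and the right panel the Selenbp2 share of the pair's counts in percent with its exact 95% binomial interval. The share is 56.5 to 89.5% in Control and at most 32.7% in the DSS and Indirubin libraries.

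Car3 (ENSMUSG00000027559, chromosome 3, 14928572 to 14937583, plus strand) was the most abundant of the 7 in Control livers, also per length, at 95.2 ± 27.0 CPM per kilobase (SD, n = 3). It read 359, 250 and 209 CPM in Control, 54.8, 23.2 and 42.6 in DSS, and 127, 0.246 and 5.10 in Indirubin. All 6 DSS and Indirubin libraries lay below the lowest Control library. The value in Indirubin-2 rests on 3 counts, and the one in Indirubin-1 was above all DSS libraries, so the Indirubin group was spread on both sides of DSS. For Car3 the log2 fold change was -2.72 (SE 0.38) in DSS against Control and -2.64 (SE 1.28) in Indirubin against Control, where it was -6.79 without Indirubin-1. An antisense noncoding gene overlaps Car3. It drew 73 counts over the 9 libraries against 5934 for Car3, and whether counting used strand is not given in the sources used here.

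Upp2 (ENSMUSG00000026839, chromosome 2, 58457310 to 58682983, plus strand), which splits uridine into uracil and ribose phosphate, stood at 31.3, 29.9 and 16.3 CPM in Control. It stood at 2.84, 1.77 and 3.75 in DSS and at 14.9, 6.31 and 3.28 in Indirubin. The DSS and Indirubin libraries were all below the lowest Control library, and Indirubin-1 came close to it. The log2 fold change was -3.15 (SE 0.44) in DSS against Control and -1.67 (SE 0.53) in Indirubin against Control, or -2.53 without Indirubin-1. Scaled by library size alone, Upp2 overlapped between Indirubin and Control, at -0.92. A processed pseudogene, Gm13559, and a noncoding gene, Gm13558, overlap Upp2 on the same strand. They drew 51 and 7 counts over the 9 libraries against 669 for Upp2.

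Gadd45g (ENSMUSG00000021453, chromosome 13, 52000714 to 52002504, plus strand) read 19.5, 62.9 and 57.5 CPM in Control, 4.50, 1.24 and 3.66 in DSS, and 1.84, 12.6 and 26.4 in Indirubin. The DSS libraries were below all Control libraries. In Indirubin, Indirubin-1, the highest of its group for Selenbp2 and Car3, was the lowest, and Indirubin-3 was inside the Control range. Gadd45g had a log2 fold change of -3.82 (SE 0.54) in DSS against Control and -1.72 (SE 0.71) in Indirubin against Control. The latter was -2.60 without Indirubin-3 and -0.56 scaled by library size alone.

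Inpp1 (ENSMUSG00000026102, chromosome 1, 52824586 to 52856847, minus strand) was the member with the tightest Indirubin group. It stood at 18.1, 27.7 and 27.0 CPM in Control, 9.13, 20.0 and 11.2 in DSS, and 2.57, 2.62 and 3.02 in Indirubin. The 3 Indirubin libraries, Indirubin-1 included, averaged 2.74 ± 0.25 CPM (SD, n = 3) and lay below all 6 other libraries, while DSS-2 fell in the Control range. They rest on 14, 32 and 35 counts. Inpp1 had a log2 fold change of -3.11 (SE 0.40) in Indirubin against Control and -0.81 (SE 0.40) in DSS against Control, where it was -1.25 without DSS-2 and -0.21 scaled by library size alone.

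BC024386 (ENSMUSG00000109628, chromosome 7, 140485908 to 140487904, plus strand) read 61.5, 60.4 and 23.9 CPM in Control, 4.39, 23.7 and 6.22 in DSS, and 5.69, 7.29 and 3.37 in Indirubin. Indirubin and Control were far apart, whereas DSS-2 nearly met Control-3, and scaled by library size alone DSS and Control overlapped. The log2 fold change was -3.12 (SE 0.48) in Indirubin against Control and -2.04 (SE 0.58) in DSS against Control, or -3.19 without DSS-2.

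**Figure D2:**
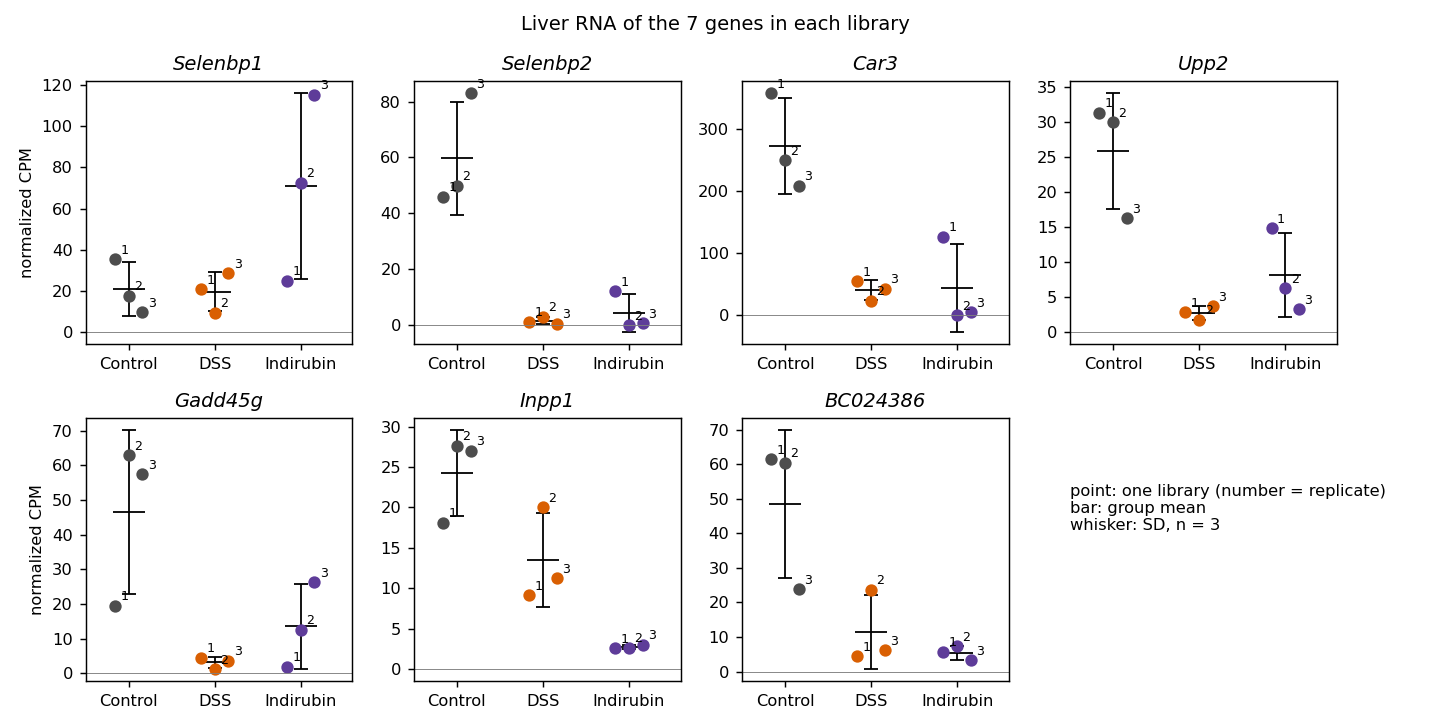
Normalized CPM of each of the 7 genes in the 9 libraries, one panel per gene with its own linear axis. Points are libraries numbered by replicate, bars the group means and whiskers the SD (n = 3). Selenbp2, Car3, Upp2 and BC024386 lie below the lowest Control library in all 6 DSS and Indirubin libraries, and Inpp1 is at 2.57 to 3.02 CPM in all 3 Indirubin libraries.

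Counted together, 5 of the 7 genes lay below Control without overlap in DSS, where 8.54% of the 7482 genes fitted did so, and 5 of the 7 in Indirubin, where 9.32% of the 8059 genes fitted did so. These counts follow from the choice of the genes. Selenbp2, Car3, Upp2 and BC024386 were below Control in both groups, Gadd45g only in DSS and Inpp1 only in Indirubin, by this measure, apart from the overlaps under library size scaling given above. The contrasts share the Control libraries. Per length, the order of the mean Control levels was Car3 at 95.2 ± 27.0, Gadd45g at 39.7 ± 20.2, BC024386 at 28.5 ± 12.6, Selenbp2 at 26.2 ± 9.0, Selenbp1 at 9.23 ± 5.78, Inpp1 at 3.76 ± 0.83 and Upp2 at 3.33 ± 1.07 CPM per kilobase (SD, n = 3). Gadd45g, BC024386 and Selenbp2 did not differ beyond their spread, nor did Inpp1 and Upp2.

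The comparison of Indirubin with DSS asks what indirubin adds to colitis. It did not choose the genes, but it uses the same DSS and Indirubin libraries as the contrasts that did. Choosing Inpp1 and BC024386 for low Indirubin values biases them downward here. Choosing Selenbp2, Car3, Upp2 and Gadd45g for low DSS values biases those upward. The p-values of these members below carry that bias and are no independent evidence. Of the 9117 genes fitted, none had an adjusted p under 0.05 in the quasi-likelihood test of edgeR (0% called in either direction). There were 406 genes above and 294 below DSS whose unadjusted p was under 0.05. The DESeq2 Wald test called 80. Inpp1 was 4.92-fold lower in Indirubin by mean CPM, with a log2 fold change of -2.28 (SE 0.50, unadjusted p = 0.000616, adjusted p = 0.352). It was lower in all 3 Indirubin libraries than in any DSS library, as were 5.92% of the genes fitted, and it was the only member without overlap. Scaled by nuclear counts alone, Selenbp1 was also without overlap, higher in Indirubin. The adjusted p of Inpp1 ranged from 0.0186 to 0.903 over the alternatives and was 0.0197 with DESeq2.

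Selenbp1 had a log2 fold change of 1.84 (SE 0.57, edgeR adjusted p = 0.446) in Indirubin against DSS, and of 2.15 (adjusted p = 0.0420) without Indirubin-1, and its adjusted p ranged from 0.0420 to 0.990 over the alternatives. Gadd45g had 2.10 (SE 0.78, adjusted p = 0.529) and Upp2 1.52 (SE 0.66, adjusted p = 0.628), both with overlapping groups. Gadd45g was at 1.21 without Indirubin-3, and Upp2 at 0.67 without Indirubin-1. BC024386 had -1.06 (SE 0.64, adjusted p = 0.807), and -0.04 without DSS-2 or -0.56 scaled by library size alone. Car3 had 0.12 (SE 1.21, adjusted p = 0.990), and its sign turned without Indirubin-1, where it was -4.01 (adjusted p = 0.0582), and without DSS-2, where it was -0.21. Selenbp2 did not pass the filter on low counts in this comparison and was not fitted. The 3 v 3 layout allows an exact two-sided permutation p no lower than 0.1 for any single gene.

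**Figure D3:**
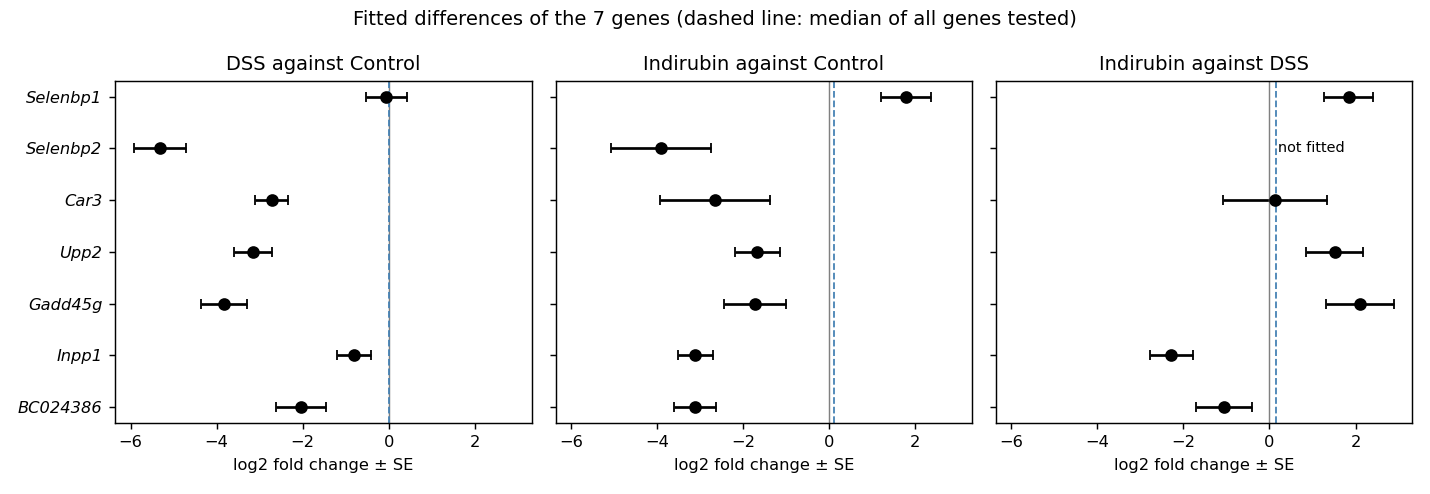
Log2 fold change with its SE for the 7 genes in the 3 comparisons, fitted with edgeR. The dashed line is the median of all genes fitted (0.01, 0.13 and 0.15). Selenbp2 is lowest in both contrasts with Control, Inpp1 is at -3.11 against Control and -2.28 against DSS in Indirubin, and Selenbp1 is the one member with a positive value against Control.

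Selenbp2 and Car3 belong to the genes that the mouse liver expresses more in males. Of 18 such genes fitted in DSS against Control, these 2 left out, 17 had a negative log2 fold change. Below Control without overlap lay 13, where 8.54% of all genes did. The adjusted threshold was passed by 3 as lower, where 0.495% of all genes did so. Of all genes fitted, 49.4% had a negative value. The list was put together with results of these data known, and so is no independent evidence. Its median was -1.56, against 0.01 for all genes. The 3 were Elovl3, a fatty acid elongase, at -3.37 (SE 0.53, edgeR adjusted p = 0.0103), Gstp1, a glutathione transferase with near-identical copies, at -1.76 (SE 0.29, adjusted p = 0.0120), and the hydroxysteroid dehydrogenase Hsd3b5 at -3.32 (SE 0.55, adjusted p = 0.0142), named after its value was seen. Elovl3 read 104 to 121 CPM in Control, 3.29 to 19.8 in DSS and 0 to 30.7 in Indirubin, with Indirubin-1 highest of its group as for Selenbp2 and Car3. Under scaling by library size alone, 16 of the 18 were still negative and 1 was called. Leaving out 1 library at a time, 0 to 4 of the list were called, with 0 without Control-2, 1 without Control-3 or DSS-3, and 4 without DSS-1.

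In Indirubin against Control all 17 male-biased genes fitted had a negative log2 fold change, and 15 lay below Control without overlap, as did 9.32% of all genes. EdgeR called none, where 0.174% of all genes were called lower. At an unadjusted p under 0.05, 14 had a negative value, as did 6.38% of all genes. A negative value was found for 44.5% of all genes. The median was -2.06, against 0.13 for all genes. Scaled by library size alone 16 were negative. Without Indirubin-1 12 were called, in a fit that called 465 of all 9721 genes, 320 of them lower. Serpina1e, a protease inhibitor of a family with near-identical copies, was at -2.25 (SE 0.48, adjusted p = 0.0758). Cyp4a12b, a fatty acid hydroxylase also close to its neighbouring paralog, had 14, 20 and 14 counts in Control and 0 in all 6 other libraries. The summed level of the list without Selenbp2 and Car3 was 2251 to 2715 CPM in Control, 499.7 to 1525 in DSS and 289.5 to 905 in Indirubin. Serpina1e made up 1481 to 1869 CPM of the Control sums, and without it the sums were 769.9 to 861 in Control, 289 to 386 in DSS, and 404.5, 113 and 147 in Indirubin-1 to Indirubin-3. Indirubin-1 was thus above every DSS library, and Indirubin-2 and Indirubin-3, the libraries with acinar markers, were below them. In Indirubin against DSS 13 of 14 had a negative value (median -0.91), as did 43.2% of all genes, and none was called by edgeR, where 1 gene above and 2 below DSS had an unadjusted p under 0.05. C8a, a complement chain, was at -1.37 (SE 0.44, adjusted p = 0.473) and Cyp2u1, a fatty acid hydroxylase, at 2.99 (SE 1.02, adjusted p = 0.496).

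Of 20 female-biased liver genes, 5 were abundant enough to fit in each contrast with Control. In each, 2 had a negative value, where 49.4 and 44.5% of all genes did. EdgeR called none, and 1 and 0 had an unadjusted p under 0.05, where 7.52 and 13.8% of all genes did. Prlr, the prolactin receptor, was at 1.61 (SE 0.46, adjusted p = 0.221) in DSS against Control and at -0.17 (SE 0.53, adjusted p = 0.935) in Indirubin against Control. In Indirubin against DSS 6 were fitted and edgeR called none. At an unadjusted p under 0.05, 2 were above DSS and 1 below, where 7.68% of all genes were in either direction. The lower one was Prlr, at -1.79 (SE 0.48, adjusted p = 0.433). The 20 genes summed to 112 and 93.1 CPM in Indirubin-2 and Indirubin-3 against 14.9 to 61.8 elsewhere.

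**Figure D4:**
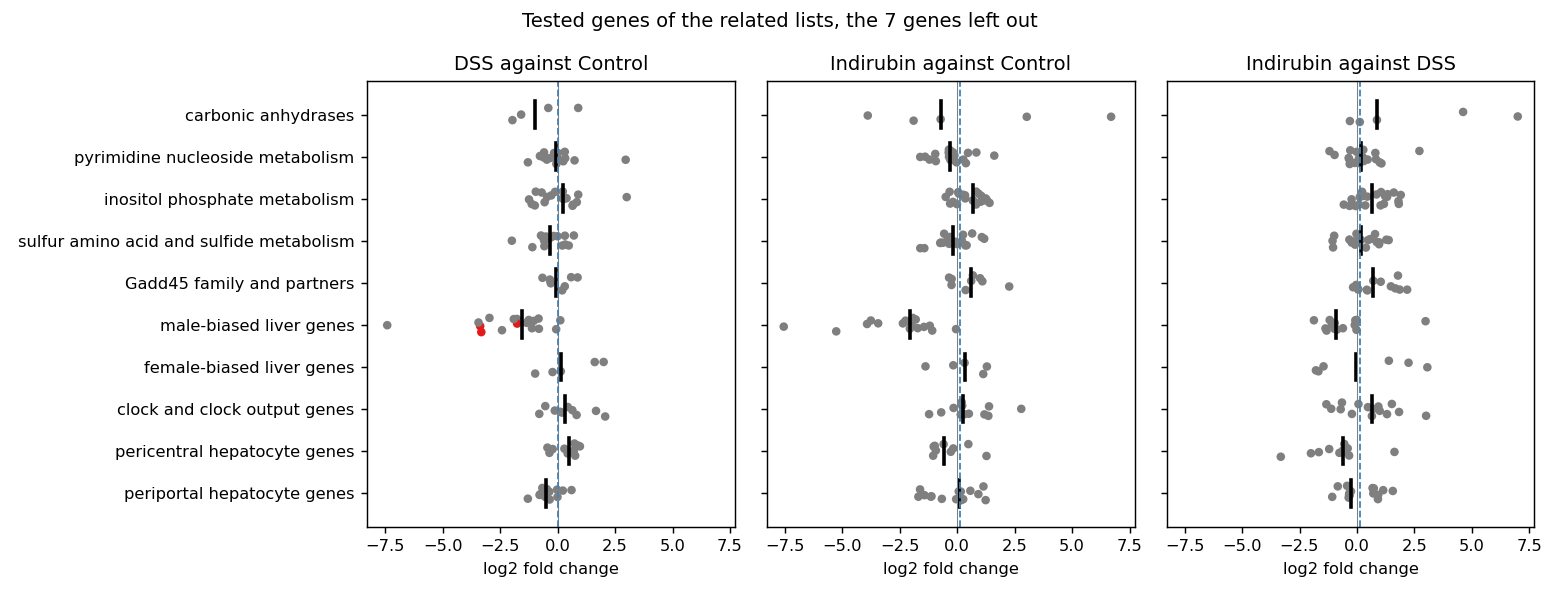
Log2 fold changes of the fitted genes of 10 lists related to the members, the 7 genes themselves left out, in the 3 comparisons. Points are genes (red where the adjusted p is under 0.05), short bars list medians and the dashed line the median of all genes fitted. The male-biased list lies at medians of -1.56, -2.06 and -0.91, and its 3 called genes in DSS against Control are the only red points.

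In the pathways of the members themselves and the clock list, edgeR called no gene in any of the 3 comparisons. At an unadjusted p under 0.05 these 6 lists held 4 of 75 genes in DSS against Control, 10 of 84 in Indirubin against Control and 10 of 94 in Indirubin against DSS. The shares over all genes fitted were 7.52, 13.8 and 7.68%, so the lists lay near the background. Among carbonic anhydrases 4 were fitted in DSS against Control, 3 of them negative, with mitochondrial Car5a at -1.97 (SE 0.83, adjusted p = 0.592). In Indirubin against Control the membrane-bound Car4 was at 6.69 (SE 1.92, adjusted p = 0.165) and Car14 at -3.90 (SE 1.16, adjusted p = 0.165). Car4 rested on 16, 13 and 15 counts in Indirubin and 0 in every Control and DSS library, so the size of its fold change is uncertain. Of the pyrimidine nucleoside genes around Upp2, 10 of 17 were negative in DSS and 14 of 19 in Indirubin against Control, with the uridine transporter Slc29a1 at -0.61 (SE 0.35, adjusted p = 0.825) and -0.96 (SE 0.41, adjusted p = 0.319). Of the inositol phosphate genes around Inpp1, 9 of 19 and 5 of 21 were negative. Isyna1, which makes inositol phosphate from glucose phosphate, was at 3.01 (SE 1.37, adjusted p = 0.647) in DSS against Control.

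In sulfur amino acid and sulfide metabolism, the pathways around SELENBP1, 12 of 17 genes were negative in DSS and 11 of 18 in Indirubin against Control. Below Control without overlap lay 6 of the 17 and 5 of the 18, where 8.54 and 9.32% of all genes did, and 0 and 1 lay above it. In Indirubin against DSS 3 of 19 were above and 2 below DSS at an unadjusted edgeR p under 0.05. Of all genes, 7.68% were so in either direction. Csad, which commits cysteine to taurine, was at -1.99 (SE 0.48, adjusted p = 0.100) in DSS against Control and at 1.28 (SE 0.53, adjusted p = 0.604) in Indirubin against DSS. Among the Gadd45 family and its partners 4 of 8 and 3 of 9 were negative, and the cell cycle inhibitor Cdkn1a was at 2.26 (SE 0.80, adjusted p = 0.227) in Indirubin against Control. The clock list held 3 negative genes of 10 in DSS and 3 of 12 in Indirubin against Control. Nr1d1, a clock repressor, was at 2.78 (SE 1.16, adjusted p = 0.309) in the latter, with 1.84, 1.39 and 9.85 CPM in Indirubin-1 to Indirubin-3 against 0 to 0.974 in Control, so that Indirubin-3 stood apart.

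Hepatocytes differ along the axis from portal to central vein. Of the pericentral genes 3 of 11 were negative in DSS and 7 of 9 in Indirubin against Control, and of the periportal genes 12 of 14 and 7 of 15. None was called by edgeR. At an unadjusted p under 0.05 there were 5 of 25 and 7 of 24, beside the shares of 7.52 and 13.8% over all genes. Glul, the pericentral glutamine synthetase, was at 0.88 (SE 0.34, adjusted p = 0.488) and Cyp2f2, a periportal cytochrome, at -1.30 (SE 0.30, adjusted p = 0.0798) in DSS against Control. In Indirubin against Control Cyp2f2 was at -1.69 (SE 0.65, adjusted p = 0.265) and Otc, the urea cycle carbamoyltransferase, at -1.62 (SE 0.47, adjusted p = 0.155). Cyp2f2 read 55.1, 8.28 and 8.29 CPM in Indirubin-1 to Indirubin-3, so that it was lowest in the libraries with acinar markers. Pericentral Cyp1a2, a cytochrome induced through the aryl hydrocarbon receptor, lay above Control and DSS in all 3 Indirubin libraries, at 1.27 (SE 0.39, adjusted p = 0.174) and 1.63 (SE 0.49, adjusted p = 0.436).

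The genes with the pattern most like each member were found by Pearson's r of log2 CPM over the 9 libraries among 6502 genes, as a description of libraries that share their groups and depth. Selenbp2 was followed most closely by Naa80 (r = 0.970), Gstp1 (0.966) and the mitochondrial mt-Co1 (0.964), and Car3 by the water channel Aqp8 (0.977), Hsd3b3 (0.970) and the fatty acid binding protein Fabp1 (0.964). For Selenbp1 they included the pyruvate carboxylase gene Pcx (0.973) and Rpl23a (0.939). Upp2 was followed by Wrnip1 (0.950), Pwwp2a (0.947) and Map4 (0.936), and Gadd45g by Dync1i2 (0.945), Pdxdc1 (0.936) and the interferon-stimulated Isg15 (0.935). Inpp1 had Peli1 (0.973), Acbd4 (0.946) and Gga1 (0.933), and BC024386 had the noncoding Dleu2 (0.987), Gstp-ps (0.961) and Rbm5 (0.956). Among the members, r was 0.873 between Selenbp2 and Car3, 0.791 between Inpp1 and BC024386, 0.772 between Selenbp2 and Upp2, and -0.588 between the paralogs Selenbp1 and Selenbp2.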

How the data were processed

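Liver RNA (RNeasy Plus Micro Kit, 400 ng per library) was sequenced on DNBSEQ, and the authors deposited raw gene counts on GRCm39, per the labels. The aligner, counting tool and annotation are not given in the sources used here. The deposited FPKM and comparison columns (fold changes, p-values) and gene lists were not used. Counts were fitted with edgeR 4.0.16 (TMM, filterByExpr, quasi-likelihood test, Benjamini-Hochberg, threshold 0.05) in R 4.3.3, each comparison on its own 6 libraries. CPM were scaled by TMM over all 9 libraries. The log2 CPM used for r had a prior count of 2, and fold changes used the default prior count of edgeR. The members and gene lists were chosen with earlier results of these data known. Named genes were the 7 members, the 3 genes of highest r with each (at least 10 counts in 6 libraries) and, per list and comparison, up to 2 genes each way with the smallest p. One gene that this rule names is not reported here. List symbols Ctps1 and Es31 were not matched. The fits were tested on simulated data. DESeq2 1.42.0 and other normalizations, filters and left-out libraries were alternatives. Same-numbered libraries did not deviate together (r -0.026 to 0.027), so numbers were not treated as pairs. Sequences came from RefSeq and GENCODE M21 (GRCm38), and Biopython 1.88 aligned them. Every total count gives the depth of its library (6514863 to 7944684).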

Additional observations from a re-analysis of the deposited data

How the results depend on the processing

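Every member except Selenbp1 kept its direction against Control in DSS under every alternative in which it was fitted, and all 7 did in Indirubin. Selenbp1 in DSS ranged from -0.42 to 0.70. Against DSS, Car3 turned from 0.12 to -0.33 by library size only, -0.00148 without a filter, -2.63 with the replicate block, -0.21 without DSS-2 and -4.01 without Indirubin-1, with leave-one-out values up to 0.70. Library size only raised the median of all genes to 0.70, 1.10 and 0.43 in DSS against Control, Indirubin against Control and Indirubin against DSS, and moved the higher share of calls from 30.2 to 73.7% and from 26.3 to 93.6%. In the same order, calls were 53, 19 and 0, then 19, 266 and 2 by library size only, 143, 316 and 80 with DESeq2, 125, 379 and 156 without a filter, 84, 72 and 2 on genes of 10 or more counts in each library, 11, 56 and 4 with all 9 libraries in one fit, and 30, 49 and 3 with the replicate block, a pairing the design does not give. Leaving out 1 library gave 12 to 64, 1 to 465 and 0 to 134 calls, the largest for Indirubin without Indirubin-1. The causes were not tested. Selenbp2 (0 to 66 counts in DSS and Indirubin libraries) and Car3 in Indirubin-2 (3 counts) are limited by depth.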
